A study of Mus musculus with 15 samples.

Results

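The 9 complement genes followed here in mouse kidney were the proteases C1ra and C1s1 and the component C4b of the classical pathway, the central component C3, complement factor B (Cfb) of the alternative pathway, and the regulators Cfi, Serping1, Cd55 and Cd59a. They were chosen by name, as 9 of the 13929 genes for which annotated transcripts could be summed in every mouse, and all 9 passed the filter on low values that left 12364 genes for testing. Total RNA, depleted of ribosomal RNA, was sequenced from the renal tissue of 15 male C57BL/6 WT mice, 5 in each of 3 groups, bought at 8 weeks of age and kept for 1 week before treatment. The study's methods also name a kit for isolating poly(A) mRNA in the library preparation. Control mice received saline from an implanted osmotic pump for 28 days, Ang II mice received angiotensin II, the pressor peptide of the renin-angiotensin system, at 500 ng/kg/min from such pumps, and Ang II + QDG mice received the same infusion together with Qingda granule (QDG), a Chinese herbal formula, at 1.145 g/kg/day by gavage. Control and Ang II mice were given water by gavage, and no group received QDG without Ang II. The design asks whether Ang II infusion changed renal transcript levels and whether QDG changed them under Ang II. The same Ang II mice entered both of these comparisons. Mice are numbered 1 to 5 within a group only to name them.

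Complement is a chain of plasma proteases and binding proteins that marks surfaces for clearance. In the classical pathway C1r activates C1s, which cleaves C4 and C2, and in the alternative pathway factor D cleaves factor B on bound C3b, so that both routes end in a convertase that splits C3. The liver is the main source of the plasma proteins, and kidney cells also transcribe several of them. Regulators act at separate steps: C1 inhibitor (Serping1) blocks C1r and C1s, Cd55 speeds the decay of convertases, factor I (Cfi) cuts C3b and C4b, and Cd59a blocks the membrane attack complex.

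The files do not name their unit. The values behave as FPKM, that is, fragments counted on a transcript and divided by its length and by the depth of the library, and are called FPKM here, summed over the transcripts of a gene that are listed for all 15 mice. Multiplied by transcript length, low values were nearly all whole multiples of what 1 read is worth in a mouse (98.4% to 98.7% of values under 200 reads, within 0.05 read), which, read as FPKM, gave 68922800 to 81329500 reads per mouse. Markers of proximal tubule, distal nephron and endothelium were present in every mouse. The mitochondrial genome took 18.5% to 20.7% of the summed FPKM in Control mice, 15.4% to 16.0% in Ang II mice and 16.9% to 19.8% in Ang II + QDG mice. In whole kidney, fewer cells of a type and less RNA per cell cannot be told apart. Fold changes are on the log2(FPKM + 1) scale, from 1 limma fit over the 15 mice with p-values adjusted by the Benjamini-Hochberg method over all 12364 genes, and a gene is said to rise or fall where its adjusted p was under 0.05.

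Of the 9 members, RefSeq promoter sequences (build GRCm38.p6) were matched for 5: C3, C1s1, C1ra, Cd55 and Cd59a. They were searched on both strands, over the 250 bases before the start of transcription, for 3 short patterns that stand for regulators of the acute-phase response: TTCNNNGAA (GAS, bound by STAT factors), TTGCNNAA (C/EBP) and, for kappaB, GGG, any 3 bases, T, any base and CC. These patterns occurred in 7.0%, 9.6% and 14.9% of 32851 promoter windows of the same length. C3 and C1s1 are printed because they are the members with a C/EBP match and because both are proteins of the cascade itself. Capitals mark the matches, which are descriptions of letters and not sites of binding. The C3 window is chr17:57228137-57228386 on the minus strand, and the C1s1 window is chr6:124542360-124542609 on the minus strand, at the start of transcript ENSMUST00000162443.
C3: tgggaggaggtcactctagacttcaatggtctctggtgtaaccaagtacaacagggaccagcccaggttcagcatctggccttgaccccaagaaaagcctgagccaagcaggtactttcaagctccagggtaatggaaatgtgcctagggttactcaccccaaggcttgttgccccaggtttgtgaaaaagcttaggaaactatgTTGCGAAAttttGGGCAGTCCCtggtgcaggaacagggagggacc
C1s1: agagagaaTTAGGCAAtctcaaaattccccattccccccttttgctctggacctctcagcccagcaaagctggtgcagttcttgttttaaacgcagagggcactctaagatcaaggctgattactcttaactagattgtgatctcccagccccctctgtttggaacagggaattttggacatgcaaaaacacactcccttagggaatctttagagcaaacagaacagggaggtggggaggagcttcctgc
In C3 the C/EBP match TTGCGAAA lay 45 to 38 bases before the start and the kappaB match GGGCAGTCCC 33 to 24 bases before it. In C1s1 the match TTAGGCAA, the C/EBP pattern read on the other strand, lay 242 to 235 bases before the start. C1s1 has a second start in the table, that of ENSMUST00000160505, whose window (chr6:124542322-124542571, minus strand) leaves out this match and held none of the 3 patterns. Cd55 held 3 kappaB matches, the nearest 17 to 8 bases before the start, and the C1ra and Cd59a windows held none of the 3 patterns. The C1ra window (chr6:124512371-124512620, plus strand) precedes a RefSeq start inside the listed transcript ENSMUST00000068593, which begins at 124512405. Most of that window therefore lies within the span of this transcript, and the bases before the transcript's own start were mostly not searched.

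Levels of the 9 genes spanned a wide range on the FPKM scale, which is per length. Cfb had the highest mean level over the 15 mice, 167 FPKM, above 97.5% of the 13929 genes summed, and it made up 59.8% to 79.5% of the members' summed FPKM in a mouse. Serping1 followed at 30.0 FPKM and Cd59a at 8.94 FPKM. C1s1 (5.74), C3 (5.55), Cd55 (4.92) and C1ra (4.49 FPKM) lay close together, with ranges over mice that overlapped. Cfi (3.03 FPKM) and C4b (2.42 FPKM) were lowest. Cfb drew 27137 to 35323 reads per mouse, C3 971 to 3584, C4b 510 to 2025 and Cd59a 810 to 1563. The spread between mice did not follow the reads: the coefficient of variation within groups was 5.87% for Cfb, 36.7% for Serping1, which was second in level, and 17.2% for Cd59a. Cfb was the steadiest member, with a 1.26-fold range over the 15 mice, against 4.20-fold for C3 and 3.56-fold for C4b.

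**Figure D1:**
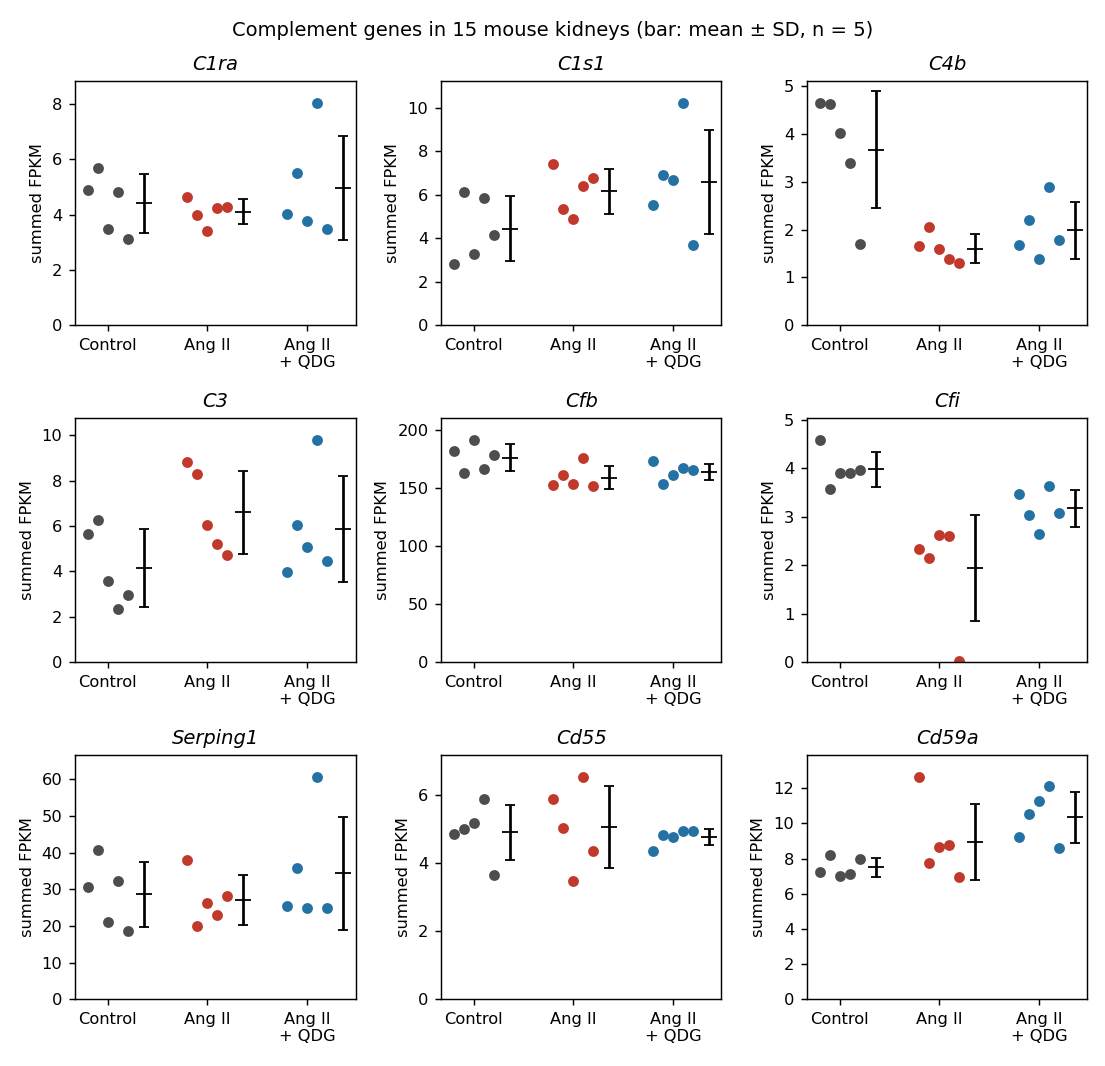
Summed FPKM (vertical axes, each starting at 0) of the 9 complement genes in every mouse, by group. Points are mice 1 to 5 from left to right, and bars are the mean ± SD of 5 mice. Mean C4b is 1.60 FPKM in Ang II mice and 3.68 FPKM in Control mice, all Ang II mice lie below the Control mice for Cfi, Cfb stays between 152 and 191 FPKM, and Ang II + QDG mouse 4 stands out for C3, C1ra, C1s1 and Serping1.

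In Ang II against Control kidneys, C4b was the member that fell, with a mean of 1.60 ± 0.297 FPKM (SD, n = 5) against 3.68 ± 1.22 FPKM in Control mice. Cfi was lower in every Ang II mouse than in any Control mouse without passing the adjusted threshold, and C3 was higher on average in Ang II mice. Cfb differed by at most 1.26-fold between any 2 mice. The remaining members, C1ra, C1s1, Serping1, Cd55 and Cd59a, had adjusted p-values of 0.278 or more in this comparison.

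By this test 1 of the 9 members was called, C4b, against 5.94% of the 12364 genes tested (735 genes, 4.95% higher and 0.995% lower). With 9 members, 1 call is not read as standing apart from that share. For 4 members (C1s1, C3, Cd55 and Cd59a) Ang II mice had a log2 fold change above 0, against 64.8% of all genes, and the median log2 fold change was -0.05 over the members and 0.08 over all genes. The members' median has no settled sign: it was -0.15 under quantile normalization and -0.14 under median scaling (with all genes at -0.01 in both), and it ran from -0.14 without Control mouse 5 to 0.03 without Control mouse 2. Scaling the mice to a common median turned the split of all calls from 612 higher and 123 lower to 201 higher and 269 lower, and quantile normalization to 228 and 268. The fold changes of C3, C4b, Cfb and Cfi kept their direction under both. At an unadjusted p under 0.05, 4 members passed (C3 higher, C4b, Cfb and Cfi lower), against 22.8% of genes. None of the 9 met the study's own type of threshold, a fold change of at least 2 with an unadjusted p under 0.05, against 1.05% of genes (130 genes). That count depends on the pseudocount of 1, which shrinks the fold changes of low genes: with 0.1 in its place C4b (-1.09) and Cfi (-1.57) met it, among 308 genes in all. With 0.01 C4b met it (-1.13, among 315 genes), with summed reads scaled to depth both did (-1.05 and -1.12, among 210 genes), and with the nuclear genes rescaled Cfi did (-1.20, among 263 genes).

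C4b is the mouse C4 component, the substrate that C1s cleaves. It lies on chromosome 17 (34728380 to 34743882, minus strand, GRCm38), and its summed value is that of 1 protein-coding transcript of 41 exons, ENSMUST00000069507. Control mice 1 to 5 had 4.64, 4.63, 4.01, 3.39 and 1.70 FPKM. Ang II mice had 1.66, 2.06, 1.60, 1.38 and 1.30 FPKM, and Ang II + QDG mice had 1.67, 2.19, 1.38, 2.90 and 1.77 FPKM. Control mice 1 to 4 lay above every Ang II mouse, and Control mouse 5 lay inside the Ang II range. The log2 fold change for Ang II against Control was -0.81 (SE 0.193, 95% interval -1.22 to -0.39, limma adjusted p = 0.0277). The call rested on several mice at once: without Control mouse 1, Control mouse 3, Ang II mouse 4 or Ang II mouse 5 the adjusted p was 0.0698, 0.0673, 0.0539 and 0.0654, with the fold change between -0.77 and -0.73, and without Control mouse 5 it was 0.00664 at -0.99.

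For Ang II + QDG against Ang II the log2 fold change was 0.18 (95% interval -0.23 to 0.60, limma adjusted p = 0.688), and 0.08 without Ang II + QDG mouse 4. Against Control it was -0.62 (95% interval -1.03 to -0.21), with an unadjusted p of 0.00608 in limma and an adjusted p of 0.167. A second C4b transcript, the 749-base retained-intron form ENSMUST00000173669, is listed only for Ang II and Ang II + QDG mice, at means of 0.341 and 0.546 FPKM. Counting it as 0 in Control mice brought the C4b fold change for Ang II to -0.62 (limma adjusted p = 0.0573). C4b also has a near copy, C4a: 35.2% of the 50-base windows of the C4b transcript occur in C4a transcripts, and no C4a transcript is listed for all mice, so reads of the pair are uncertain between them.

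C3, the component on which all pathways meet, lies on chromosome 17 (57203970 to 57228136, minus strand) with 1 listed transcript, ENSMUST00000024988. Control mice had 5.67, 6.26, 3.57, 2.32 and 2.96 FPKM. Ang II mice had 8.80, 8.28, 6.05, 5.22 and 4.72 FPKM, and Ang II + QDG mice had 3.98, 6.06, 5.09, 9.77 and 4.44 FPKM. The 3 groups overlapped, with Control mice 1 and 2 inside the Ang II range. The log2 fold change for Ang II against Control was 0.59 (SE 0.254, 95% interval 0.05 to 1.14), with an unadjusted p of 0.0350 in limma and an adjusted p of 0.182. For Ang II + QDG against Ang II it was -0.17 (95% interval -0.72 to 0.37, limma adjusted p = 0.795). Without Ang II + QDG mouse 4, which had the highest C3 of all mice, that difference was -0.35 (limma adjusted p = 0.547).

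C3 and C4b, which are evolutionary relatives, had fold changes of opposite sign in Ang II against Control mice, of which that of C4b passed the test and that of C3 did not. C3 FPKM divided by C4b FPKM was 1.22, 1.35, 0.891, 0.685 and 1.74 in Control mice. It was 5.29, 4.02, 3.79, 3.80 and 3.62 in Ang II mice, and 2.38, 2.77, 3.70, 3.37 and 2.50 in Ang II + QDG mice. Every Ang II and every Ang II + QDG mouse had a higher ratio than every Control mouse, while Ang II and Ang II + QDG overlapped through 1 mouse. This ratio was chosen after its values were seen, so no test is given for it. Around the group means the log2 levels of the genes had a Pearson r of 0.72 over 15 mice (permutation p = 0.00444, adjusted over 36 pairs of members 0.0799) and a Spearman rho of 0.83 (permutation p = 0.000900, adjusted 0.0162). Without the 2 mice farthest from the median of C3, r was 0.60, and without Ang II + QDG mouse 4 it was 0.65, at an adjusted p of 0.301 by permutation.

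**Figure D2:**
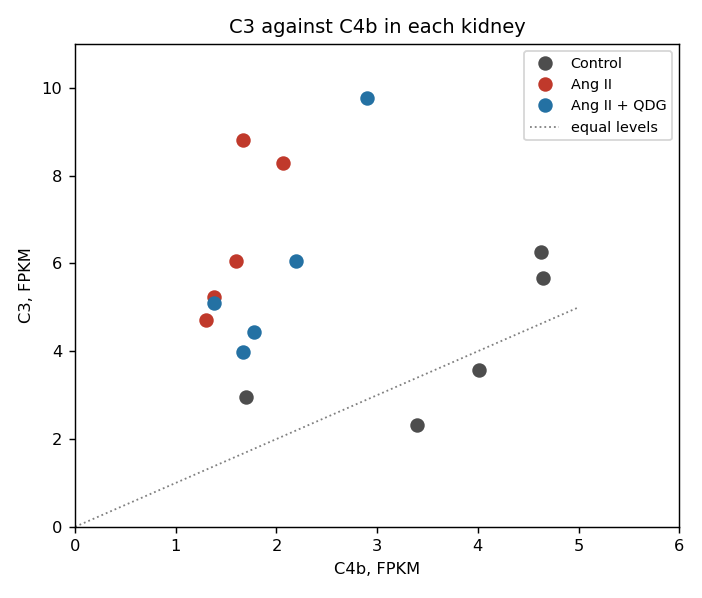
C3 (vertical axis, FPKM) against C4b (horizontal axis, FPKM) in each of the 15 kidneys, coloured by group, with a dotted line of equal levels. The 5 Control mice lie near the line, at ratios of 0.685 to 1.74, and the Ang II mice lie well above it, at 3.62 to 5.29, with Ang II + QDG mice at 2.38 to 3.70.

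Cfi encodes factor I, the protease that inactivates C3b and C4b with the help of cofactors. It lies on chromosome 3 (129835884 to 129875332, plus strand), with 1 listed transcript of 14 exons, ENSMUST00000077918. Control mice had 4.57, 3.57, 3.89, 3.90 and 3.95 FPKM. Ang II mice had 2.33, 2.15, 2.61, 2.61 and 0.0188 FPKM, and Ang II + QDG mice had 3.47, 3.04, 2.64, 3.62 and 3.07 FPKM. Ang II mice lay below every Control mouse and below every Ang II + QDG mouse, the latter by a small margin (the highest Ang II and the lowest Ang II + QDG mice had 2.61 and 2.64 FPKM). Ang II mouse 5 stood apart with 3 reads on Cfi, where the other mice had 354 to 754. In these comparisons of Ang II mice with Control and with Ang II + QDG mice, Cfi was the only member without overlap between the groups. Of all genes, 1.42% lay wholly lower in Ang II than in Control mice and 1.55% wholly higher with QDG than under Ang II alone. Both separations of Cfi rest on the same 5 Ang II mice, so they are not independent.

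The log2 fold change of Cfi for Ang II against Control was -0.89 (SE 0.277, 95% interval -1.48 to -0.29), with an unadjusted p of 0.00638 in limma and an adjusted p of 0.0745. Ang II mouse 5 both enlarged the difference and widened its error: without it the fold change was -0.54 and the limma adjusted p 0.0170. For Ang II + QDG against Ang II the log2 fold change was 0.63 (95% interval 0.04 to 1.23, unadjusted p 0.0393, limma adjusted p = 0.270). Without Ang II mouse 5 it was 0.28 (limma adjusted p = 0.166). Ang II + QDG and Control mice differed by -0.26 (95% interval -0.85 to 0.34, limma adjusted p = 0.712).

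Cfb, the protease subunit of the alternative convertase, lies on chromosome 17 (34856374 to 34862518, minus strand). Control mice had 182, 163, 191, 167 and 179 FPKM. Ang II mice had 153, 161, 154, 176 and 152 FPKM, and Ang II + QDG mice had 173, 154, 161, 167 and 165 FPKM. Control mice 1, 3 and 5 lay above every Ang II mouse, and Control mice 2 and 4 lay inside the Ang II range. The log2 fold change for Ang II against Control was small, -0.15 (SE 0.0563, 95% interval -0.27 to -0.03), with an unadjusted p of 0.0204 in limma and an adjusted p of 0.135, and under quantile normalization it was -0.23 with a limma adjusted p of 0.0316. For Ang II + QDG against Ang II it was 0.04 (95% interval -0.08 to 0.17, limma adjusted p = 0.754).

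Below this steady gene total, the values of single Cfb transcripts differed widely between mice. All 6 listed Cfb transcripts are protein-coding and share most of their exons, so how the reads were divided among them is uncertain. Single transcripts ranged 4.83-fold to 37.9-fold over the 15 mice. The form with the highest mean, ENSMUST00000025229 of 2737 bases, had 36.4, 16.4, 54.9, 63.9 and 41.6 FPKM in Control mice. It had 77.9, 56.1, 86.0, 95.03 and 99.9 FPKM in Ang II mice, and 46.7, 49.4, 40.8, 22.9 and 79.4 FPKM in Ang II + QDG mice. It was the most abundant Cfb form in 4 of 5 Ang II mice, 0 of 5 Control mice and 1 of 5 Ang II + QDG mice. In a limma fit over 28812 transcripts its log2 fold change for Ang II against Control was 1.05 (SE 0.351, unadjusted p 0.00991, adjusted p = 0.161), and for Ang II + QDG against Ang II it was -0.86 (adjusted p = 0.371). The 2751-base form ENSMUST00000128767 reached 77.6 FPKM in Control mouse 2 and 99.7 FPKM in Ang II + QDG mouse 4, where it was the leading form, against 2.63 to 6.16 FPKM in Ang II mice. None of the members' transcripts was called by limma in any of the 3 comparisons, in which 199, 28 and 7 transcripts were called, and at an unadjusted p under 0.05 the C3, C4b and Cfi transcripts and 2 of the 6 Cfb transcripts passed in Ang II against Control, 5 of 17 against 15.9% of all transcripts. In Ang II + QDG against Ang II the Cfi transcript and 3 Cfb transcripts did, 4 of 17 against 11.3%.

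**Figure D3:**
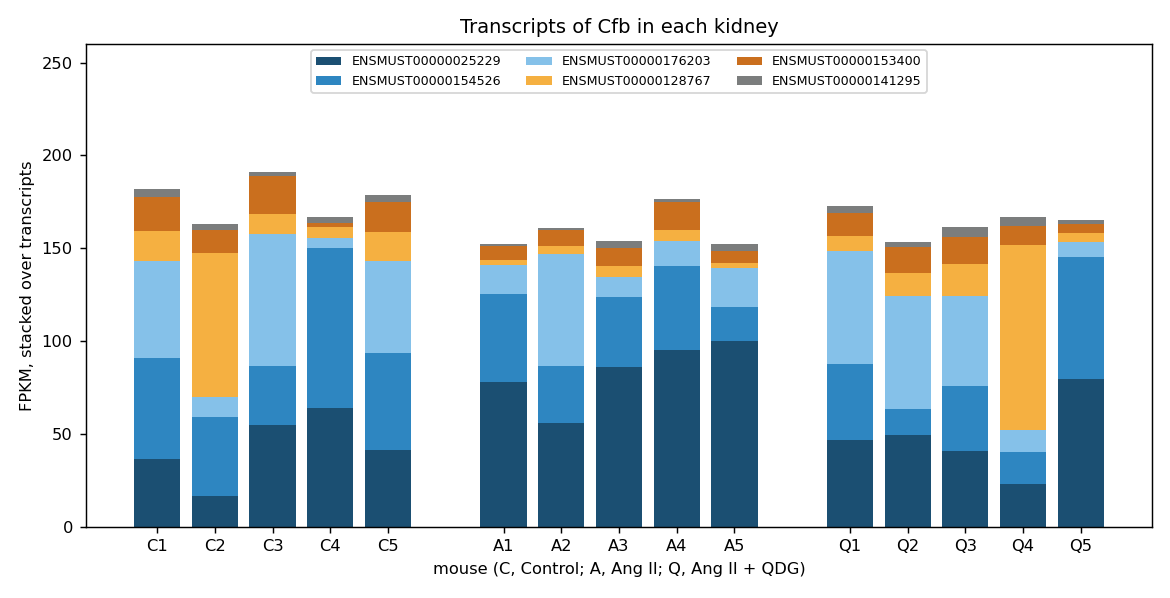
FPKM of the 6 Cfb transcripts stacked for each mouse (horizontal axis, mice 1 to 5 of each group). The stacks reach a similar height, 152 to 191 FPKM, while the share of ENSMUST00000025229 runs from 10.01% to 65.6%.

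C1ra and C1s1 encode the mouse C1r and C1s proteases and lie near each other on chromosome 6 (124512405 to 124523443, plus strand, and 124530345 to 124542359, minus strand). C1ra had 4.90, 5.68, 3.48, 4.83 and 3.13 FPKM in Control mice. It had 4.63, 3.99, 3.40, 4.25 and 4.26 FPKM in Ang II mice, and 4.01, 5.52, 3.79, 8.04 and 3.46 FPKM in Ang II + QDG mice. The groups overlapped, and the log2 fold change was -0.06 for Ang II against Control (95% interval -0.46 to 0.33, limma adjusted p = 0.881) and 0.18 for Ang II + QDG against Ang II (95% interval -0.22 to 0.57, limma adjusted p = 0.689). Without Ang II + QDG mouse 4 the latter was 0.01.

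C1s1 had 2.80, 6.13, 3.27, 5.87 and 4.15 FPKM in Control mice. Ang II mice had 7.43, 5.36, 4.90, 6.42 and 6.76 FPKM, and Ang II + QDG mice had 5.53, 6.91, 6.69, 10.2 and 3.68 FPKM. Ang II mice 1, 4 and 5 lay above every Control mouse, and the groups overlapped. Its log2 fold change was 0.43 for Ang II against Control (SE 0.224, 95% interval -0.05 to 0.91, limma adjusted p = 0.278) and 0.04 for Ang II + QDG against Ang II (95% interval -0.44 to 0.52, limma adjusted p = 0.957). Both its listed transcripts are protein-coding. The form with the higher Control mean, ENSMUST00000162443, ran from 1.11 to 6.19 FPKM over the mice and ENSMUST00000160505 from 0.00485 to 5.44 FPKM, and in single mice they lay far apart (3.67 and 0.00485 FPKM in Ang II + QDG mouse 5, 1.21 and 5.21 FPKM in Ang II mouse 4), so the division of reads between them is uncertain. C1s1 FPKM divided by C1ra FPKM was 0.571 to 1.33 in Control mice, 1.34 to 1.60 in Ang II mice and 1.06 to 1.77 in Ang II + QDG mice, given as a description. Each has a near copy in the genome, C1rb and C1s2, with 48.0% and 24.6% of 50-base windows shared, and neither copy is listed for all mice.

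Serping1, which encodes C1 inhibitor, lies on chromosome 2 (84765387 to 84775444, minus strand), with most of its value on ENSMUST00000023994. Control mice had 30.7, 40.7, 21.01, 32.2 and 18.6 FPKM. Ang II mice had 38.1, 20.0, 26.3, 23.0 and 28.2 FPKM, and Ang II + QDG mice had 25.6, 35.8, 24.9, 60.5 and 25.0 FPKM. The Ang II values lay within the Control range, and Ang II + QDG mouse 4 lay above all other mice. The log2 fold change was -0.05 for Ang II against Control (95% interval -0.62 to 0.52, limma adjusted p = 0.932) and 0.27 for Ang II + QDG against Ang II (95% interval -0.30 to 0.84, limma adjusted p = 0.660), and the latter was 0.05 without Ang II + QDG mouse 4.

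Cd55 and Cd59a encode regulators anchored in the cell membrane. Cd55, on chromosome 1 (130439027 to 130462744, minus strand), had 4.88, 5.00, 5.19, 5.89 and 3.65 FPKM in Control mice. It had 5.88, 5.06, 3.48, 6.53 and 4.36 FPKM in Ang II mice and 4.37, 4.84, 4.78, 4.94 and 4.94 FPKM in Ang II + QDG mice. The Ang II + QDG mice fell within the range of both other groups. Its log2 fold change was 0.02 for Ang II against Control (95% interval -0.26 to 0.31, limma adjusted p = 0.949), with a sign that flipped under quantile normalization, under median scaling and with all listed transcripts summed, and -0.05 for Ang II + QDG against Ang II (95% interval -0.33 to 0.24, limma adjusted p = 0.904). Most of the Cd55 value came from ENSMUST00000027650, of whose 50-base windows 13.3% occur in the near copy Cd55b, a gene with no listed transcript. A further Cd55 form, the retained-intron ENSMUST00000140725, is listed only for Control mice, at a mean of 0.563 FPKM. Summing all listed transcripts counts that form as 0 in the other mice. The intervals of Cd55 leave out a change as large as that of C4b.

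Cd59a, on chromosome 2 (104095801 to 104115354, plus strand), had 7.25, 8.18, 7.03, 7.10 and 7.98 FPKM in Control mice. It had 12.6, 7.77, 8.66, 8.78 and 6.97 FPKM in Ang II mice and 9.21, 10.52, 11.3, 12.2 and 8.63 FPKM in Ang II + QDG mice. Ang II mice spanned the Control range and beyond it, and every Ang II + QDG mouse lay above every Control mouse. Most of its value came from ENSMUST00000040423. The log2 fold change was 0.20 for Ang II against Control (95% interval -0.07 to 0.48, limma adjusted p = 0.374, and 0.09 without Ang II mouse 1) and 0.21 for Ang II + QDG against Ang II (95% interval -0.07 to 0.48, limma adjusted p = 0.461). For Ang II + QDG against Control it was 0.41 (SE 0.128, 95% interval 0.13 to 0.68), with an unadjusted p of 0.00651 in limma and an adjusted p of 0.170. Cd59a was the only member lying wholly apart from Control in that comparison, in which 2.78% of genes lay wholly higher. Of the 50-base windows of its main form, 4.3% occur in the near copy Cd59b, which is listed and was tested among the other complement genes.

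**Figure D4:**
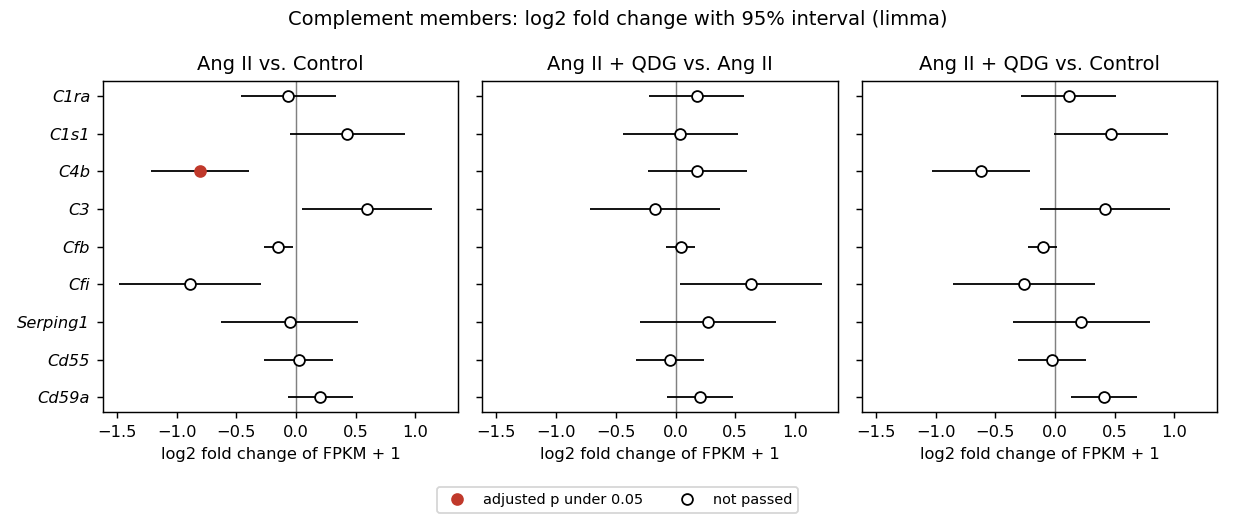
Log2 fold change of FPKM + 1 (horizontal axes) with its 95% interval for the 9 members in the 3 comparisons, from limma. The filled point marks an adjusted p under 0.05, reached by C4b alone, at -0.81 for Ang II vs. Control.

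In Ang II + QDG against Ang II kidneys no member was called, against 1.81% of the 12364 genes (224 genes). At an unadjusted p under 0.05 in limma, 1 member passed, Cfi, against 16.4% of genes. There were 7 members with a log2 fold change above 0 (all but C3 and Cd55 of the 9), against 46.3% of all genes, with a median of 0.18 over the members and -0.02 over all genes. That median was 0.04 without Ang II + QDG mouse 4. In Ang II + QDG against Control kidneys no member was called, against 0.129% of genes (16 genes), and 2 passed at an unadjusted p under 0.05 in limma (C4b lower and Cd59a higher), against 14.4% of genes. Without Control mouse 5, C4b was called in that comparison, at -0.81 (limma adjusted p = 0.0389).

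Ang II + QDG mouse 4 had the highest level of all 15 mice for C3, C1ra, C1s1 and Serping1. It also had the highest summed level of the leukocyte markers, though not of each marker. The summed FPKM of the leukocyte markers, 8 of 10 of which are listed for all mice (Cd3e and Cd79a are not), was 416 in that mouse against 130 to 227 in the rest of its group, 127 to 182 in Ang II mice and 173 to 274 in Control mice. S100a8, a neutrophil marker, was at 25.9 FPKM there and at 0 to 1.85 FPKM elsewhere, and it was the marker of this list listed at 0 in some mice. The C1q chains, which macrophages make, were likewise highest there (C1qa 25.7, C1qb 30.7 and C1qc 15.8 FPKM). Cd74 and H2-Aa weigh most in the leukocyte sum, with means of 118 and 53.1 FPKM over the 15 mice. Ptprc reached 1.904 FPKM in a Control mouse and at most 1.498 FPKM in Ang II + QDG mice. Csf1r reached 2.20 FPKM in an Ang II mouse and at most 1.03 FPKM in Ang II + QDG mice. The other listed leukocyte markers had their highest value in an Ang II + QDG mouse. None of the 6 leukocyte markers tested was called in any comparison, and all 6 had a log2 fold change below 0 for Ang II against Control (median -0.46). So did 5 of the 9 members (C1ra, C4b, Cfb, Cfi and Serping1), while Csf1r, a listed macrophage marker too low to be tested, was at 0.00536 to 0.0549 FPKM in Control mice and 0.0107 to 2.20 FPKM in Ang II mice. For Ang II + QDG against Ang II all 6 were above 0 (median 0.36, and 0.19 without Ang II + QDG mouse 4), as were the 4 tested liver markers (median 0.27, and 0.28 without that mouse) and 7 of the 9 members. Ang II mouse 1, the highest of its group for C3, C1ra, C1s1, Serping1 and Cd59a, had the highest fat marker sum of all mice (174 FPKM, against 25.1 to 104 in the others, with Adipoq, Plin1 and Cidec listed at 0 in some mice). Of the other marker lists given here, liver had 1 of 4 tested genes called for Ang II against Control (Apob, lower) and fibroblasts 1 of 6 (Pdgfrb, higher), Podxl, a podocyte marker, was called too (log2 fold change 0.35, limma adjusted p = 0.0277), and none was called in the endothelium, fat, proximal tubule or distal nephron lists. The part of these cells in the members' levels was not tested.

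Around the group means, 28 of the 36 pairs of members had a positive Pearson r of log2(FPKM + 1) over the 15 mice, and 1 passed after adjustment. The pairs share genes and mice and are not independent. C1ra and Serping1, a target protease and its inhibitor, had r = 0.91 (permutation p = 0.000340, adjusted over 36 pairs 0.0122) and rho = 0.87 (permutation p = 0.000260, adjusted 0.00936). Without the 2 mice farthest from the median of C1ra r was 0.86, and without Ang II + QDG mouse 4 it was 0.85, at an adjusted p of 0.0536 by permutation. Cfb, the most abundant member, had a negative r with 6 of its 8 partners, and no relation of it passed. Among all 12364 genes the 3 whose log2 levels had the highest Pearson r with Cfb over the 15 mice were Tpp1 (0.85), Rspry1 (0.84) and Vps35 (0.84), and around the group means these were 0.77, 0.73 and 0.78.

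Of 51 other complement genes listed by pathway, 23 had transcripts for all mice and 20 were tested. In Ang II against Control kidneys 2 of the 20 rose and none fell, against 4.95% of all genes higher and 0.995% lower. C1qbp, a mostly mitochondrial protein that can bind C1q, had a mean of 94.5 ± 2.40 FPKM (SD, n = 5) in Ang II mice and 79.9 ± 3.24 FPKM in Control mice, without overlap (6.49% of all genes lay wholly higher in Ang II mice), for a log2 fold change of 0.24 (SE 0.0402, limma adjusted p = 0.00742). Thbd, the endothelial receptor thrombomodulin, which also dampens complement, had 11.05 ± 2.11 FPKM in Ang II mice and 7.26 ± 0.733 FPKM in Control mice, again without overlap (log2 fold change 0.53, SE 0.123, limma adjusted p = 0.0245). Both calls were lost when the mice were scaled to a common median, at adjusted p-values of 0.0689 and 0.0698, with the direction kept. That of Thbd was also lost under quantile normalization (0.0659) and without Control mouse 1 (0.0554) or Control mouse 3 (0.0627).

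In Ang II + QDG against Ang II kidneys 1 of the 20 rose, against 0.526% of all genes. C2, the classical pathway relative of factor B, had 16.6, 18.9, 17.9, 19.0 and 20.8 FPKM in Ang II mice and 23.8, 23.0, 22.5, 25.0 and 23.6 FPKM in Ang II + QDG mice, which did not overlap (1.55% of all genes lay wholly higher). Its log2 fold change was 0.33 (SE 0.0776, 95% interval 0.16 to 0.49, limma adjusted p = 0.0495). The call lay at the threshold: leaving out any 1 mouse other than Control mouse 4 ended it, at adjusted p-values of 0.0513 to 0.106. Control mice had 17.5 to 23.5 FPKM of C2. No wider complement gene was called in Ang II + QDG against Control.

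By pathway, the median log2 fold change of the C1q chains and C2, the classical list, was -0.34 for Ang II against Control and 0.34 for Ang II + QDG against Ang II, with 0 and 1 of 4 called. Without Ang II + QDG mouse 4 the second median was 0.18, with C1qa at -0.12. The tested terminal pathway genes (C7, C8a and C8g) had medians of -0.32 and -0.01, with none called. C8a, a chain of the membrane attack complex, lay far from both medians, at log2 fold changes of -0.87 (limma adjusted p = 0.240) and 1.20 (unadjusted p 0.0128, limma adjusted p = 0.164). On the log2(FPKM + 1) scale it was the only one of the 9 members and the 20 other genes to meet the study's type of threshold in Ang II + QDG against Ang II, where 0.34% of all genes met it with a higher level, and with a pseudocount of 0.1 or 0.01, 2 of the 20 met it, among 198 and 202 genes in either direction against 99 with the pseudocount of 1. C8a had 3.18, 3.00, 2.45, 2.65 and 0.0827 FPKM in Control mice, 0.122, 1.82, 0.262, 0.0352 and 1.74 FPKM in Ang II mice, and 2.65, 2.60, 6.02, 2.40 and 1.30 FPKM in Ang II + QDG mice, so the groups overlapped. The 2 tested lectin pathway genes had medians of 0.04 and 0.12, with none called, the second at 0.02 without Ang II + QDG mouse 4. The 3 soluble regulators had medians of 0.30 and -0.45, and none was called, the second running from -0.81 to -0.11 with 1 mouse left out (without Ang II + QDG mouse 3 and mouse 5). Of these, Clu and Cpn1 are among the 3 most abundant of the 20 other complement genes tested: Clu (clusterin), at 117 to 225 FPKM in Ang II mice and 80.6 to 116 FPKM in Control mice, and Cpn1, a carboxypeptidase that inactivates anaphylatoxins, at 35.5 to 53.0 and 31.0 to 42.7 FPKM. Clu lay wholly higher in Ang II mice, as did 6.49% of all genes, by a margin of 116.53 FPKM in Ang II mouse 4 over 116.44 FPKM in Control mouse 2. Its log2 fold change was 0.56 (SE 0.411, limma adjusted p = 0.456), and Ang II + QDG mouse 1 had 18.3 FPKM of it, against 90.1 to 133 FPKM in the rest of its group. Cfd, factor D of the alternative pathway and an adipocyte product, was at 71.4 FPKM in Ang II mouse 1 and 33.3 FPKM in Control mouse 2, the mice with the highest fat marker sums, and it was listed at 0 in 3 mice. Among the membrane regulators 1 of 4 tested was called (Thbd) and among the receptors 1 of 3 (C1qbp), both in Ang II against Control.

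**Figure D5:**
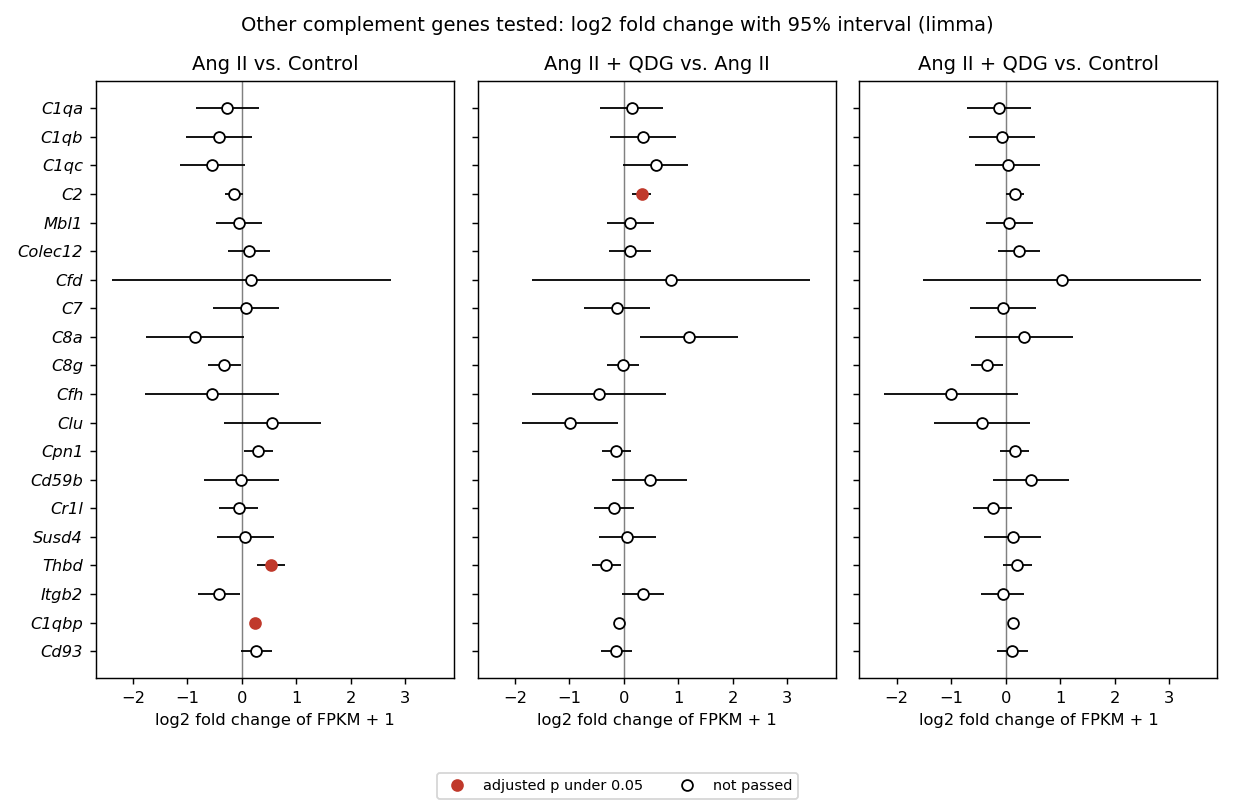
Log2 fold change of FPKM + 1 (horizontal axes) with its 95% interval for the 20 other complement genes tested, in the 3 comparisons, from limma. Filled points mark an adjusted p under 0.05: C1qbp at 0.24 and Thbd at 0.53 for Ang II vs. Control, and C2 at 0.33 for Ang II + QDG vs. Ang II.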

How the data were processed

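Renal RNA was sequenced in 15 mice, 1 library each. The deposited tables give a normalized value per transcript, treated here as FPKM made by the authors: the unit was inferred from the values, and the aligner, assembler and counter are not given in the sources used here (the processing notes name limma and the mm10 build). Control tables listed 41477 transcripts and the others 42310, and 40054 were in all 15. This split follows the groups. In both comparisons with Control, an effect of the transcript list therefore cannot be told apart from one of treatment. Summing over shared transcripts does not undo how reads were divided over the 2 lists. Of 31301 Ensembl transcript IDs, 31254 matched GENCODE M21 (GRCm38), and 12432 assembled transcripts without gene names were left out of the gene sums, so part of a gene's reads may be missing from its sum. No 2 tables held identical values.

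FPKM was summed per gene over the 28871 annotated transcripts of all 15 tables, and genes that reached 1 FPKM in 5 or more mice were kept. log2(FPKM + 1) was fitted with limma 3.58.1 in R 4.3.3 (1 mean per group, 15 mice, 12 residual degrees of freedom, moderated variances with a trend, two-sided), which understates the fold changes of low genes, and called at an adjusted p under 0.05. The scripts were tested on simulated data. Correlations used 100000 permutations within groups in Python 3.11.15 with scipy 1.17.1. With 1 library per mouse, p-values measure the spread between mice.

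The members and lists were chosen with earlier results of these data known. Named were all 9 members, their most abundant or called transcripts, wider complement genes called in any comparison, the 3 of highest level, and the 3 genes most like the most abundant member. C1qa to C1qc, Cfd, Itgb2, the terminal pathway genes, the marker genes, the second C4b form and the Cfb form of 2751 bases were named after their values were seen. Alternatives changed the pseudocount, the filter, the scaling, the transcripts summed, the variance model and the mice in the fit. Sums of reads in place of FPKM, and relations and list medians with mice left out, were added after the data were seen. The result of 1 marker list is not reported here.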

Additional observations from a re-analysis of the deposited data

Results flagged for a closer look

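Each group of 5 mice was examined for a lowest or highest mouse set far apart from the others (Dixon's test at the 95% level), for 87 groups of the 9 members and the 20 other complement genes tested. The test marks about 1 group in 20 by chance, and 10 were marked, 2 of them for members. Cfi was at 0.0188 FPKM in Ang II mouse 5, where the next lowest Ang II mouse had 2.15 FPKM and the highest 2.61 FPKM. Cd55 was at 4.37 FPKM in Ang II + QDG mouse 1, where the others of that group had 4.78 to 4.94 FPKM, and this value lies inside the range of the Control mice.

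The other 8 were in the wider complement genes. Ang II + QDG mouse 4 was high for C1qc (15.8 FPKM, with the next mouse of its group at 7.61), C7 (5.23 against 1.60 FPKM) and Itgb2, the CD18 chain of complement receptors (2.93 against 1.57 FPKM). Cfd was high in 1 mouse of each group, at 33.3 FPKM in Control mouse 2 (the next at 7.81), 71.4 FPKM in Ang II mouse 1 (the next at 4.25) and 26.7 FPKM in Ang II + QDG mouse 5 (the next at 6.03). C8a was low in Control mouse 5, at 0.0827 FPKM against 2.45 in the next, and high in Ang II + QDG mouse 3, at 6.02 against 2.65 FPKM.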

How the results depend on the processing

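In Ang II vs. Control, 1 member was called, and the count was 0 at a filter of 5 FPKM (which removes C4b, Cfi and C1ra), 0 with all listed transcripts summed, 0 with only the 2 groups compared, 2 with quantile normalization, and 0 to 1 with 1 mouse left out. In Ang II + QDG vs. Control, 0 members were called, and 0 to 1 with 1 mouse left out. The wider genes called in Ang II vs. Control numbered 2, with 1 under quantile normalization, 0 under median scaling and 1 to 2 with 1 mouse left out. In Ang II + QDG vs. Ang II the 1 wider gene called became 0 with no filter, median scaling, nuclear genes rescaled (a setting that also lets more genes pass the filter), no variance trend and only the 2 groups compared, and 0 to 1 with 1 mouse left out. Transcripts of members called were 0, and 0 to 1 with 1 mouse left out (C4b without Control mouse 5, limma adjusted p = 0.0293). The 1 related pair became 0 without Ang II + QDG mouse 4. Cd55 in Ang II vs. Control turned to -0.0735 under quantile normalization, -0.0685 under median scaling and -0.108 with all listed transcripts summed. The last of these counts a form listed only for Control mice as 0 in the others. With 1 mouse left out, signs turned, all with adjusted p-values of 0.679 or more: C1ra ranged from -0.155 to 0.0184 (Ang II vs. Control) and -0.0497 to 0.205 (Ang II + QDG vs. Control), C1s1 from -0.115 to 0.20 (Ang II + QDG vs. Ang II), Serping1 from -0.189 to 0.0839 and -0.00182 to 0.358 (both vs. Control), Cd55 from -0.0627 to 0.124, -0.150 to 0.0367, and -0.110 to 0.0314 in the 3 comparisons, and Clu, at -0.427 with all mice, from -0.631 to 0.0685 (Ang II + QDG vs. Control, the latter without Ang II + QDG mouse 1). The causes were not tested.

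Calls over all genes moved more: 735 in Ang II vs. Control became 470 with median scaling, 461 with 2 groups, 408 with protein-coding transcripts and 337 to 798 with 1 mouse left out (lowest without Control mouse 1). The 224 of Ang II + QDG vs. Ang II became 68 with 2 groups and 53 to 254 with 1 mouse left out (lowest without Ang II mouse 2), and the 16 of Ang II + QDG vs. Control became 80 with all listed transcripts, 6 with protein-coding transcripts, 4 with 2 groups, 9 with nuclear genes rescaled and 0 to 110 with 1 mouse left out (highest without Control mouse 2). No paired analysis was possible because the labels carry no replicate numbers.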
